A study of Mus musculus with 2 samples.

Results

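The 4 kinases that phosphorylate the translation factor eIF2alpha and 6 genes of the stress response downstream of them were followed through the cells of the mouse fetal liver. The 10 genes were found by symbol among the gene names of the deposited matrices. The rule names symbols and no measured value, but it was set with earlier results of these data known. They were Eif2ak1, Eif2ak2, Eif2ak3, Eif2ak4, Atf4, Ddit3, Ddit4, Ppp1r15a, Trib3 and Asns, of 27998 genes in all, and every symbol was found. The cells came from 1 wild-type C57BL/6 liver (C57BL/6J in the methods) at E12.5 (the embryonic day), without a transgene or treatment. They had been dissociated by enzymes and by pipetting and sorted to remove debris, dead cells and doublets. They were read as 2 droplet libraries (libraries 1 and 2), which the study's methods call technical replicates, whereas the submitters' design text speaks of 2 suspensions. With 1 liver there is no biological replicate, so no test between animals was possible and no p-value is given. The cell types and the erythroid clusters were those that the authors assigned.

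Cells slow the start of protein synthesis when eIF2alpha is phosphorylated, because its exchange factor eIF2B is then blocked. Each of the 4 kinases answers another signal. Eif2ak1 (HRI) is held inactive by heme and is active when heme is short, Eif2ak2 (PKR) binds double-stranded RNA, Eif2ak3 (PERK) senses unfolded protein in the endoplasmic reticulum, and Eif2ak4 (GCN2) senses uncharged transfer RNA when amino acids are short. While most translation falls, that of the transcription factor ATF4 increases. ATF4 switches on Asns (asparagine synthetase), Trib3 (a pseudokinase that restrains ATF4), Ddit3 (the transcription factor CHOP) and Ddit4 (an inhibitor of mTORC1). Ppp1r15a (GADD34) closes the loop, since it brings protein phosphatase 1 to eIF2alpha. In red cell precursors HRI matches globin synthesis to the supply of heme. Both kinase activity and translation lie beyond RNA counts and were not measured here.

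The promoters of all 10 genes were found in the RefSeq table (assembly GRCm38.p6), as 250 bases before and 50 bases after each transcription start, and 3 motifs were searched on both strands. These were TGATGNAA, the element bound by ATF4 with C/EBP factors, AGATAA, which holds the core bound by GATA factors, and CCNCACCC, an element of KLF factors. The ATF4 element was present in the windows of Asns and Trib3, compared with 3.97% of 32851 promoters. The following stretches of 30 bases are shown because they hold the matches in genes whose levels are described here; they are written 5′ to 3′ on the strand of the gene, with the motif, or its reverse complement, in capitals.
Asns, ATF4 element, chr6:7693214-7693243, minus strand: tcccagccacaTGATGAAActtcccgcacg
Trib3, ATF4 element in reverse, chr2:152344028-152344057, minus strand: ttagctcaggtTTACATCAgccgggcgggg
Ppp1r15a, GATA element, chr7:45526440-45526469, minus strand: acgtgactgccAGATAAggttcgcgtactt
Ddit3, GATA element in reverse, chr10:127290788-127290817, plus strand: cttgaggtcagTTATCTtgagcctaacacg
Eif2ak4, KLF element, chr2:118388537-118388566, plus strand: ccagagcagagCCACACCCcctagacctgt

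The GATA element was found in 11.2% of all promoters and the KLF element in 16.6%. Ddit3 also held a KLF element in reverse, and the matches in Ddit3 did not overlap. None of the 3 motifs was present in the windows of Eif2ak1, Eif2ak2, Eif2ak3, Atf4 and Ddit4. A match describes letters in a window and is not a measured binding site.

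Library 1 held 5480 kept cells and library 2 held 5057, with medians of 6261 and 9774 unique molecular identifiers (UMIs, each marking 1 captured RNA molecule) per cell. The populations were stem and progenitor cells (HSPC), early erythroid cells (Ery, made of clusters Ery 1 and Ery 2), erythroblasts (Eryb, Ery 3 to Ery 6), primitive erythroid cells (EryP), megakaryocytes (Mk), granulocytes (G), monocytes and Kupffer cells (Mo/KC), hepatoblasts (Hepa) and endothelial cells (EC). They ranged from 20 and 26 endothelial cells to 3820 and 3612 erythroblasts in libraries 1 and 2. Of their defining markers, 5 of 6 were highest in Eryb, 3 of 3 in EryP, 4 of 4 in Mk, 6 of 6 in G, 6 of 6 in Mo/KC, 4 of 4 in Hepa and 4 of 4 in EC. For HSPC this held for 3 of 5 markers, and for Ery for 1 of 5 (Epor), since Klf1 and Car1 were higher in Eryb, Gata1 in Mk and Kit in HSPC. The libraries shared 31 cell barcodes, and no doublet caller was applied here beyond the authors' sorting.

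The clusters Ery 1 to Ery 6 differed widely in the amount and kind of RNA. The median UMIs per cell were 26146 and 25977 in Ery 1 of libraries 1 and 2, and 4378 and 7882.5 in Ery 6. Adult globins took 1.02% and 2.32% of the UMIs of Ery 1, and 57.0% and 77.9% of those of Ery 6. Levels are therefore given on more than 1 scale: as counts per 1000000 UMIs of the population (CPM), as CPM over a total without globin and mitochondrial UMIs, and as UMIs per cell. Intervals in parentheses cover 95% and counting error only. Paired values are those of library 1 and library 2, in that order.

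Eif2ak1, the heme-regulated kinase (chromosome 5, 143817788 to 143904251, plus strand, GRCm38), had its highest CPM in the erythroblast cluster Ery 6. It was measured at 26.4 and 24.0 CPM in HSPC. In the erythroid clusters it stood at 35.2 and 35.5 CPM in Ery 1, 60.4 and 54.3 in Ery 2, 120 and 90.4 in Ery 3, 185 and 115 in Ery 4, 228 and 122 in Ery 5, and 272 and 138 in Ery 6. In both libraries the CPM was thus higher in each successive cluster. The steps from Ery 2 to Ery 3, from Ery 3 to Ery 4 and from Ery 5 to Ery 6 exceeded counting error in both libraries, whereas that from Ery 4 to Ery 5 did so in library 1 only (ratios of 1.24 and 1.07). The intervals of Ery 1 (31.6 to 39.2 and 31.8 to 39.6) lay below those of Ery 2 (55.5 to 65.7 and 49.6 to 59.5).

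Outside these clusters Eif2ak1 was measured at 54.3 and 52.8 CPM in EryP, 54.5 and 44.4 in Mk, 26.5 and 29.4 in Mo/KC, 27.0 and 24.8 in G, 30.5 and 21.2 in EC, and 18.7 and 16.1 in Hepa. Ranked by mean CPM, no neighbours from Ery 2 down through EryP, Mk, Ery 1, Mo/KC, G, EC and HSPC to Hepa were apart in both libraries. This concerns neighbours only. The intervals of Ery 2 lay above those of Ery 1 and of HSPC (21.2 to 32.4 and 18.9 to 30.1) in both libraries. Hepatoblasts, with the lowest level, are not a cell type known to lack the gene.

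The number of Eif2ak1 molecules captured per cell changed far less than the CPM. It was 0.427 and 0.361 UMIs per cell in HSPC, 0.928 and 0.919 in Ery 1, 0.996 and 1.03 in Ery 2, 1.24 and 1.15 in Ery 3, 1.08 and 1.10 in Ery 4, 1.34 and 1.21 in Ery 5, and 1.27 and 1.17 in Ery 6. From Ery 1 to Ery 6 the CPM of Eif2ak1 was 7.72-fold (6.86 to 8.69) and 3.89-fold (3.45 to 4.40) higher, but the UMIs per cell were 1.37-fold (1.22 to 1.54) and 1.27-fold (1.12 to 1.43) higher. Over a total without globin and mitochondrial UMIs the ratio was 18.4 and 17.9. The direction was the same on the 3 scales, while its size depended on what the count was divided by.

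The share of cells with an Eif2ak1 UMI also depended on depth. Without adjustment it was 56.5% and 54.9% in Ery 1 and 67.9% and 64.4% in Ery 6. Thinned to 3600 UMIs per cell, with shallower cells left out, it was 11.7% and 11.4% in Ery 1 and 60.5% and 38.4% in Ery 6. This left 981 of 1218 cells of Ery 6 in library 1 and all 1176 in library 2. The thinned share was 8.90% and 8.09% in HSPC and 5.77% and 5.17% in Hepa.

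**Figure D1:**
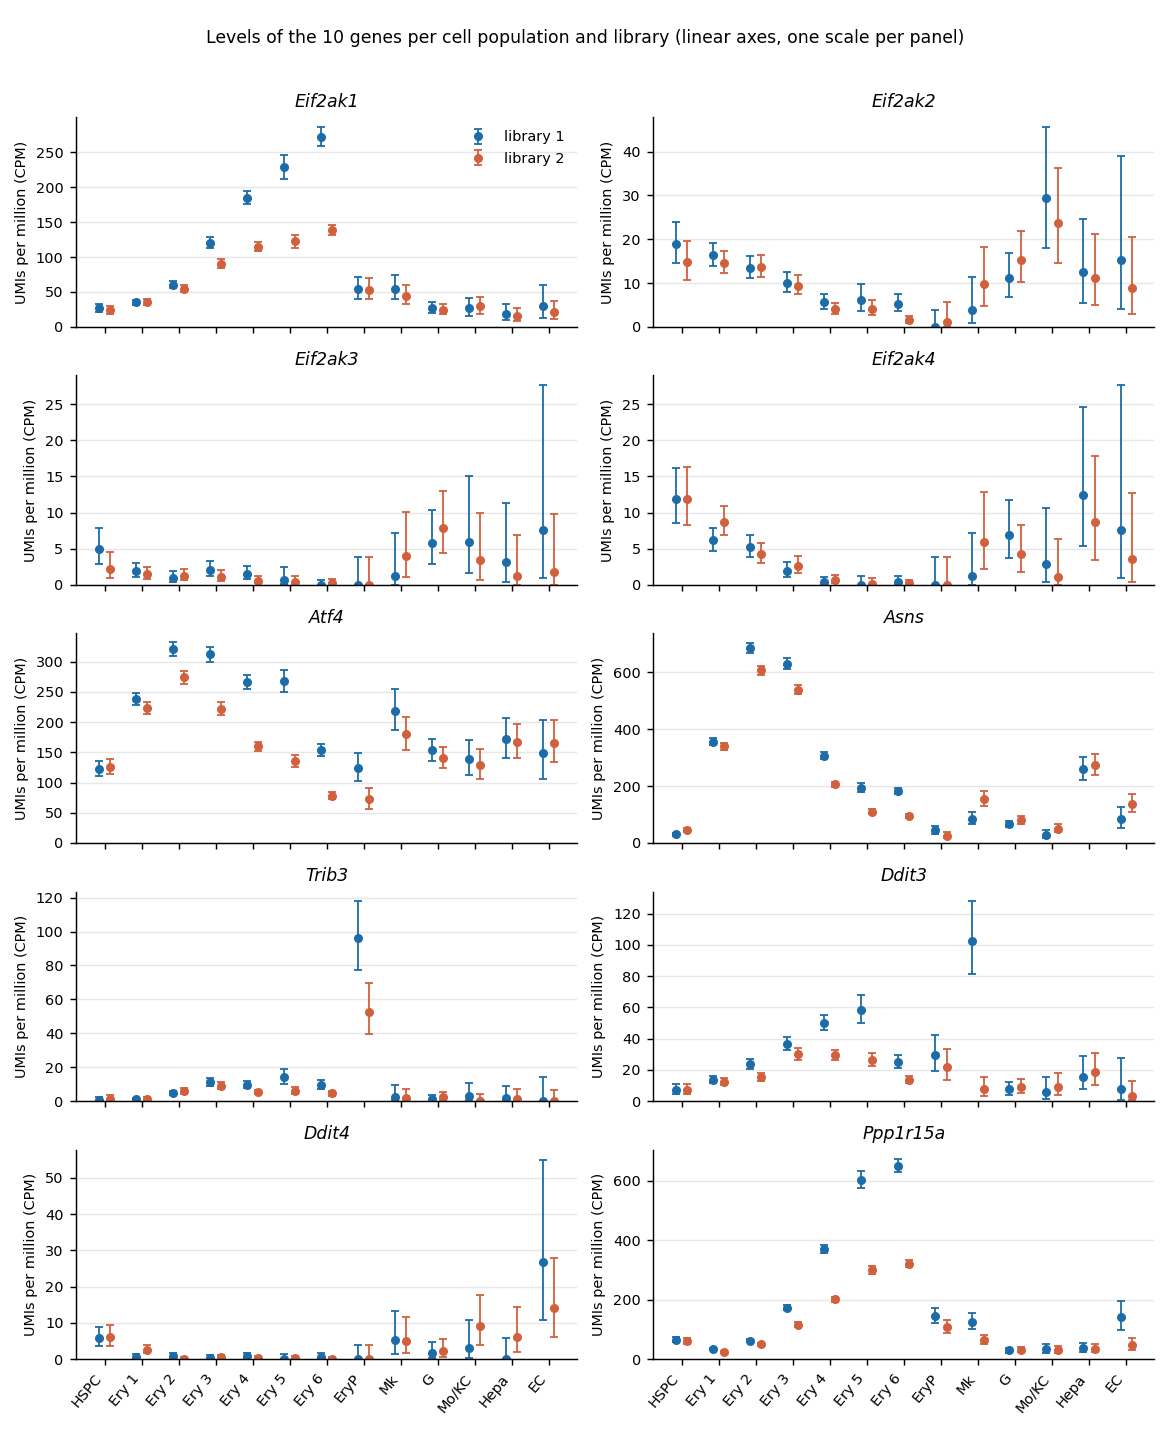
CPM (y axes, linear, with a scale of its own in each panel) of the 10 genes in HSPC, the 6 erythroid clusters and the other cell types (x axis), with 1 point per library and bars for the exact 95% Poisson intervals. Eif2ak1 and Ppp1r15a reach their highest CPM in Ery 6 (272 and 138 for Eif2ak1), whereas Asns is highest in Ery 2 and Trib3 in EryP.

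Of the other 3 kinases, Eif2ak2 and Eif2ak4 had lower values in Ery 6 than in Ery 1, in CPM and per cell, and Eif2ak3 was too rare to follow. Eif2ak2, the kinase of double-stranded RNA (chromosome 17, 78852564 to 78882573, minus strand), was measured at 29.5 and 23.7 CPM in Mo/KC, where it was highest, and at 18.8 and 14.7 in HSPC. It stood at 16.4 and 14.6 CPM in Ery 1, 13.5 and 13.7 in Ery 2, 10.0 and 9.41 in Ery 3, 5.66 and 4.07 in Ery 4, 6.16 and 4.10 in Ery 5, and 5.27 and 1.51 in Ery 6. The level in Ery 6 was below that in Ery 1 in both libraries, and counted per cell it was 0.0246 and 0.0128 UMIs against 0.432 and 0.379. Without globin and mitochondrial UMIs in the total the ratio of Ery 6 to Ery 1 was 0.767 (0.501 to 1.14) and 0.476 (0.259 to 0.813), so that library 1 did not exceed counting error. In EryP 0 and 1 UMIs were found.

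Eif2ak4, the kinase of amino acid shortage (chromosome 2, 118388618 to 118475234, plus strand), was measured at 11.9 and 11.8 CPM in HSPC, 12.495 and 8.64 in Hepa and 6.18 and 8.72 in Ery 1. In Ery 6 only 2 and 2 UMIs were counted among 1218 and 1176 cells (0.351 and 0.202 CPM), compared with 61 and 81 UMIs among 375 and 359 cells of Ery 1. No UMI of Eif2ak4 was found in the 170 and 118 cells of EryP, where a floor of 3 counts corresponds to 3.13 and 3.11 CPM and the exact intervals reach 3.85 and 3.82.

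Eif2ak3, the kinase of the endoplasmic reticulum (chromosome 6, 70844515 to 70905245, plus strand), was rare throughout. It was measured at 5.82 and 7.91 CPM in G, from 11 and 15 UMIs, beside 7.63 and 1.76 in EC from 2 and 1 UMIs, 5.89 and 3.39 in Mo/KC, 4.93 and 2.24 in HSPC and 1.92 and 1.51 in Ery 1. In Ery 6 it had 0 and 3 UMIs, and in EryP 0 in both libraries, with the same limits as Eif2ak4. At such counts no neighbouring populations in the order of Eif2ak3 could be told apart in both libraries. The same was true of the order of Eif2ak2 and of Eif2ak4.

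Read against each other, the 4 kinases shifted towards Eif2ak1 along the erythroid lineage. Eif2ak1 made up 42.5% and 45.5% of the UMIs of the 4 kinases in HSPC, 59.0% and 58.8% in Ery 1, 75.4% and 73.9% in Ery 2, 89.5% and 87.3% in Ery 3, 96.1% and 95.5% in Ery 4, 97.1% and 96.4% in Ery 5, and 98.0% and 98.6% in Ery 6. This share does not use the total of the population, so that globin does not enter it. In EryP 52 of 52 and 51 of 52 kinase UMIs were from Eif2ak1. Outside the erythroid lineage the share was 89.4% and 69.2% in Mk, 53.1% and 47.5% in G, 40.9% and 51.0% in Mo/KC, 40.0% and 43.3% in Hepa, and 50.0% and 60.0% in EC. Divided by the length of the longest transcript of each gene, which lies between 4.313 and 5.298 kb, the mean share of Eif2ak1 was 45.8% in HSPC, 68.6% in Ery and 95.4% in Eryb.

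**Figure D2:**
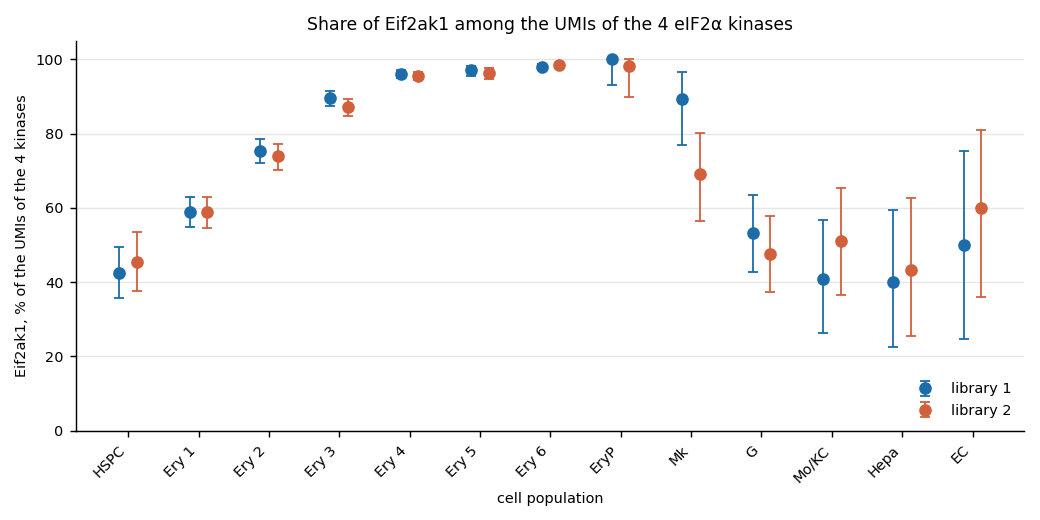
Share of Eif2ak1 among the UMIs of the 4 eIF2alpha kinases (percent, y axis) in each population (x axis), with 1 point per library and exact 95% Clopper-Pearson intervals. The share lies between 42.5% and 45.5% in HSPC and at 98.0% and 98.6% in Ery 6.

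Atf4, the transcription factor at the centre of the response (chromosome 15, 80255184 to 80257541, plus strand), was present in every population. It was measured at 123 and 125 CPM in HSPC, 238 and 223 in Ery 1, 321 and 274 in Ery 2, 312 and 222 in Ery 3, 266 and 160 in Ery 4, 267 and 135 in Ery 5, and 153 and 77.9 in Ery 6. Its CPM was 2.27-fold (2.05 to 2.51) and 1.97-fold (1.78 to 2.19) higher in Ery than in HSPC. Between Ery 1 and Ery 6 the direction depended on the scale. The ratio of Ery 6 to Ery 1 was 0.644 and 0.350 in CPM and 0.114 and 0.114 in UMIs per cell, but 1.54 and 1.61 without globin and mitochondrial UMIs in the total. In EryP Atf4 stood at 124 and 72.5 CPM.

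Asns, which makes asparagine (chromosome 6, 7675169 to 7693254, minus strand), showed the largest difference of the 10 genes between progenitors and early erythroid cells. It was measured at 29.9 and 45.1 CPM in HSPC, 356 and 340 in Ery 1, 684 and 606 in Ery 2, 630 and 539 in Ery 3, 306 and 206 in Ery 4, 195 and 110 in Ery 5, and 183 and 94.1 in Ery 6. In CPM the peak in Ery 2 exceeded its neighbours beyond counting error in both libraries. Adult globins took 3.24% and 7.33% of the UMIs of Ery 2 and 15.5% and 28.2% of those of Ery 3. The peak is therefore given for CPM only, and need not hold over a total without globin. In CPM the ratio of Eryb to Ery was 0.712 and 0.503. Without globin and mitochondrial UMIs in the total it was 1.13 and 1.20, the opposite direction. Ery exceeded HSPC by 17.2-fold (14.2 to 21.1) and 10.4-fold (8.79 to 12.3), and 67 of the 8992 genes counted in this contrast had a higher ratio. The cells of Ery 2 held 11.3 and 11.5 Asns UMIs each, and those of Ery 6 held 0.854 and 0.793. Outside the erythroid lineage Hepa had the highest level, with 259 and 273 CPM, and EryP stood at 44.9 and 25.9.

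Trib3, the pseudokinase (chromosome 2, 152337422 to 152344032, minus strand), was highest in the primitive erythroid cells. EryP held 92 and 51 UMIs, which gave 96.0 and 52.8 CPM, whereas Eryb stood at 10.6 and 5.97, Ery at 2.78 and 3.45, and HSPC at 0.870 and 1.28 from 3 and 4 UMIs. No UMI was found in EC, where 3 counts correspond to 11.4 and 5.29 CPM. The CPM in EryP was 9.06-fold (7.06 to 11.5) and 8.84-fold (6.38 to 12.1) that in Eryb, and the UMIs per cell were 8.04-fold and 7.36-fold higher. Thinned to 3600 UMIs, 29.5% of the 141 EryP cells deep enough in library 1 and 17.0% of all 118 in library 2 had a Trib3 UMI. Of the 7275 genes counted between EryP and Eryb, 16 had a higher ratio than Trib3.

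Ddit3, which encodes CHOP (chromosome 10, 127290774 to 127296288, plus strand), was measured at 7.25 and 7.36 CPM in HSPC, 13.6 and 12.2 in Ery 1, 23.7 and 15.2 in Ery 2, 36.7 and 30.1 in Ery 3, 50.0 and 29.3 in Ery 4, 58.5 and 26.5 in Ery 5, and 25.1 and 13.7 in Ery 6. Among these populations its CPM was thus highest in Ery 5 in library 1 and in Ery 3 in library 2, and below both in Ery 6. Neither of these tops was apart from Ery 4 beyond counting error. Ery 5 over Ery 4 was 1.17 (0.972 to 1.40) in library 1, and Ery 4 over Ery 3 was 0.975 (0.825 to 1.15) in library 2. These tops are given for CPM only, and need not hold over a total without globin. In Eryb its CPM was 2.22-fold and 1.81-fold that of Ery, while its UMIs per cell were 0.689 and 0.809 times those of Ery. Without globin and mitochondrial UMIs in the total the ratio of Eryb to Ery was 3.51 and 4.31. That of Ery 6 to Ery 1 was 4.42 and 5.19 on this total, 1.85 and 1.13 in CPM, and 0.329 and 0.367 in UMIs per cell.

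The libraries disagreed on Ddit3 in megakaryocytes, at 103 CPM in library 1 and 7.89 (3.41 to 15.5) in library 2. The 79 UMIs of library 1 lay in 20 of 79 cells, and 1 cell held 16 of them. In library 1, 35 of these cells had fewer than 4387 UMIs, the lowest count of a kept cell in library 2. These shallow cells had 462 CPM (316 to 652) of Ddit3, a median of 2135 UMIs and 4.86% mitochondrial UMIs. The remaining 44 cells still had 67.1 CPM (49.3 to 89.2), and without the cell with the most Ddit3 the level was 82.1. Whether cell quality had a part in this difference was not tested.

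Ddit4, the mTORC1 inhibitor (chromosome 10, 59949669 to 59951834, minus strand), was nearly absent from the erythroid cells. EC had 26.7 and 14.1 CPM, from 7 and 8 UMIs in 20 and 26 cells, and HSPC 5.80 and 6.08, from 20 and 19 UMIs. Ery stood at 0.735 and 1.39 CPM, Eryb at 0.536 and 0.282, and EryP had no UMI in either library (the floor of 3 counts being 3.13 and 3.11 CPM). The level in Ery was 0.127 and 0.229 times that in HSPC.

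Ppp1r15a, the phosphatase subunit that reverses the kinases (chromosome 7, 45522916 to 45526268, minus strand), increased more than any other member from Ery 1 to Ery 6. It was measured at 64.7 and 60.5 CPM in HSPC, 33.7 and 23.4 in Ery 1, 61.6 and 49.9 in Ery 2, 173 and 116 in Ery 3, 371 and 200 in Ery 4, 604 and 298 in Ery 5, and 651 and 321 in Ery 6. Each step from Ery 3 to Ery 6 exceeded counting error in both libraries. Per cell, 0.888 and 0.604 UMIs were counted in Ery 1, 3.55 and 2.96 in Ery 5 and 3.04 and 2.70 in Ery 6. The ratio of Ery 6 to Ery 1 was therefore 19.3 (17.3 to 21.7) and 13.7 (12.0 to 15.8) in CPM, and 3.43 and 4.47 in UMIs per cell.

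Ppp1r15a is among the genes that respond quickly to stress, so a list of 16 genes induced by dissociation was summed beside it. The list had 323 and 289 CPM in Ery 1, 792 and 379 in Ery 5, and 483 and 210 in Ery 6. The sum does not stand for each of its genes. Jun had 21.1 and 17.4 CPM in Ery 1, 2.05 and 0.341 in Ery 5, and 1.41 and 0.606 in Ery 6. Fos had 8.31 and 7.75, then 8.56 and 6.15, then 5.45 and 2.73. Over the cell types the sum of the list ranged from 291 CPM in EryP to 1079 in Mo/KC in library 1, and from 210 to 940 in the same types in library 2. In EC Ppp1r15a was measured at 141 and 47.6 CPM, from 37 and 27 UMIs, and the list at 1049 and 790. The part of dissociation in these levels was not tested.

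Erythroid cells were also ordered by the share of adult globin among their UMIs and cut into 10 groups with the same number of cells per library, without using the clusters. The median globin share was 0.787% and 0.947% in the first group and 63.5% and 83.3% in the last. The CPM of Eif2ak1 was 36.3 and 39.4 in the first group, 273 and 148 in the ninth and 254 and 110 in the last. Per cell, 0.828 and 0.984, then 1.35 and 1.30, then 1.13 and 0.935 UMIs were counted. On both scales the last group was thus below the ninth, although in library 1 their CPM intervals overlapped (233 to 276 and 252 to 295). Without globin and mitochondrial UMIs in the total the last group was not below, with 660 and 719 CPM in the ninth group and 769 and 728 in the last.

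In CPM the stress response genes peaked at different points of this order. Asns was highest in the second group, at 695 and 647 CPM, and stood at 87.7 and 40.7 in the last. Atf4 was highest in the third group of library 1 (340 CPM) and the second of library 2 (273), and was measured at 99.1 and 40.7 in the last. Ppp1r15a was highest in the ninth group, at 662 and 344 CPM, from 32.1 and 21.5 in the first. In library 1 the intervals at these tops of Asns, Atf4 and Ppp1r15a overlapped that of a neighbouring group. For Ppp1r15a this was so in library 2 as well. Eif2ak2 stood at 16.6 and 15.2 CPM in the first group and 3.30 and 0.532 in the last. The order uses globin, which also enters the total behind the CPM, and the peaks moved with that total. Without globin and mitochondrial UMIs Asns was highest in the third group of library 1 (806 CPM) and the second of library 2 (740), Atf4 in the seventh (493) and the eighth (482), and Ppp1r15a in the last (1955 and 1733). The sixth and eighth groups of library 1 had nearly the same level of Atf4 (488 and 487).

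**Figure D3:**
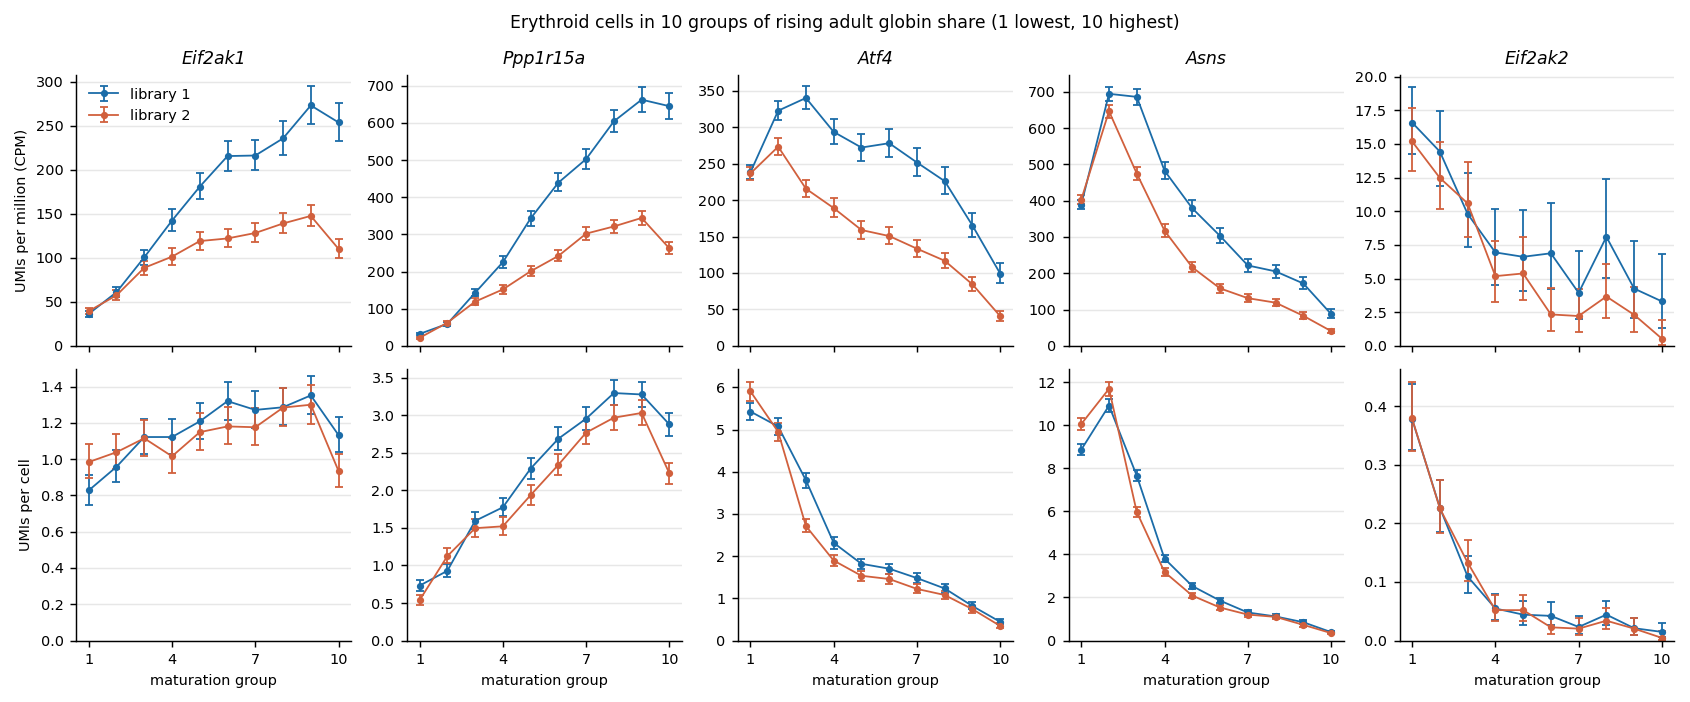
Levels of 5 genes along 10 groups of erythroid cells ordered by their adult globin share (x axis), as CPM in the upper row and as UMIs per cell in the lower row (linear y axes), with 1 line per library and exact 95% Poisson intervals. Ppp1r15a and Eif2ak1 reach their highest CPM in the ninth group (662 and 344, and 273 and 148), and Asns in the second (695 and 647).

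The members were then read against all genes in 4 contrasts. A gene was counted when both populations together held at least 50 of its UMIs in each library, and was called higher or lower when its CPM ratio was at least 2 or at most 0.5 in both libraries. Eif2ak3 and Ddit4 were too rare to be counted in any contrast. The contrasts share populations and are given side by side.

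Between Ery and HSPC, 2 of the 8 counted members were called higher (Trib3 and Asns) and 0 lower. Trib3 was counted only through Ery, with 53 and 62 UMIs there and 3 and 4 in HSPC, so that this call is uncertain. Among all 8992 counted genes 6.84% were called higher and 15.0% lower. Eif2ak1 was 1.80-fold (1.45 to 2.25) and 1.86-fold (1.47 to 2.39) higher in Ery, which exceeded counting error but not the threshold. Eif2ak4 stood at 0.481 and 0.554 and Ppp1r15a at 0.730 and 0.598 times their levels in HSPC, so that neither was called.

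Between Eryb and Ery, Eif2ak1 and Ppp1r15a were called higher, and Eif2ak2 and Eif2ak4 lower, of 8 counted members. Here 4.80% of 9003 genes were called higher and 53.0% lower, so that a lower CPM was the usual outcome. Eif2ak1 was 4.01-fold (3.73 to 4.31) and 2.62-fold (2.43 to 2.83) higher in CPM, and 1.25-fold and 1.17-fold in UMIs per cell. Ppp1r15a was 8.52-fold and 6.38-fold higher in CPM and 2.65-fold and 2.85-fold in UMIs per cell. Eif2ak2 was measured at 0.467 and 0.324 and Eif2ak4 at 0.144 and 0.142 times their CPM in Ery. Eif2ak4 was counted only through Ery, with 109 and 118 UMIs there and 20 and 33 in Eryb, so that this call is uncertain. With globin and mitochondrial UMIs left out of the total, the ratio of Eif2ak2 was 0.738 and 0.771, no longer past the threshold, and that of Eif2ak4 was 0.228 and 0.337.

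Between Ery 6 and Ery 1, Eif2ak1, Ppp1r15a and Trib3 were called higher and Eif2ak2 and Eif2ak4 lower, of 8 counted members. Of 7811 genes 4.95% were called higher and 77.3% lower. Eif2ak2 and Eif2ak4 were counted only through Ery 1, with 162 and 136, and 61 and 81 UMIs there. In Ery 6 they had 30 and 15, and 2 and 2. Trib3 was counted mostly through Ery 6, with 54 and 44 UMIs there, so that these 3 calls are uncertain. Trib3 rose by 8.51-fold and 3.17-fold in CPM, from 11 and 13 UMIs in Ery 1, whereas its UMIs per cell had ratios of 1.51 (0.781 to 3.21) and 1.03 (0.547 to 2.09). Asns and Atf4 had lower CPM in Ery 6 in both libraries without passing the threshold in both. Without globin and mitochondrial UMIs in the total the ratio of Asns was 1.22 (1.14 to 1.31) and 1.27 (1.18 to 1.37), the opposite direction, as for Atf4 above.

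Between EryP and Eryb, Trib3 was called higher, and Eif2ak1, Eif2ak2, Atf4, Ppp1r15a and Asns lower, of 7 counted members. Eif2ak2 was counted only through Eryb, with 170 and 163 UMIs there and 0 and 1 in EryP. Its ratios were 0 (0 to 0.555) and 0.225 (0.00567 to 1.27), so that library 2 did not exceed counting error. Of 7275 genes 1.14% were called higher and 64.4% lower. Eif2ak1 in EryP had 0.286 and 0.452 times its CPM in Eryb, but 0.759 and 1.03 times when globin and mitochondrial UMIs were left out of the total. On that total the ratio of Atf4 was 1.30 and 1.12 and that of Ppp1r15a 0.958 and 1.07, so that their lower CPM in EryP did not hold on that scale.

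The median gene itself shifted in most of these contrasts. Its log2 CPM ratio was -0.08 and -0.08 between Ery and HSPC, -1.09 and -1.68 between Eryb and Ery, -2.58 and -3.50 between Ery 6 and Ery 1, and -1.81 and -1.68 between EryP and Eryb. Without globin and mitochondrial UMIs in the total, that between Ery 6 and Ery 1 was -1.33 and -1.30. In UMIs per cell it was -5.08 and -5.12. The part of globin in these shifts was not tested. Divided by the median gene, a ratio does not depend on the total or on the number of cells. On this basis Eif2ak1 was 46.2-fold (41.1 to 52.0) and 44.0-fold (39.0 to 49.8) higher in Ery 6 than in Ery 1, and Ppp1r15a 116-fold (103 to 130) and 155-fold (135 to 179). Trib3 stood at 51.0 (26.4 to 108) and 35.9 (19.0 to 72.6), from 11 and 13 UMIs in Ery 1. Ddit3 stood at 11.1 and 12.8, Atf4 at 3.85 and 3.96, and Asns at 3.07 and 3.13. Eif2ak2 had a ratio of 1.92 (1.26 to 2.85) and 1.17 (0.637 to 2.00) and Eif2ak4 of 0.340 and 0.262. The interval of Eif2ak2 held 1 in library 2, and that of Eif2ak4, from 2 UMIs in Ery 6 of each library, ran from 0.0403 to 1.28 in library 1 and from 0.0312 to 0.976 in library 2.

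In the ranking of the 7811 genes by their mean log2 ratio between Ery 6 and Ery 1, 81 genes were above Ppp1r15a (1.04%), 215 above Eif2ak1 (2.75%) and 228 above Trib3 (2.92%). For Eif2ak2 2956 genes were higher (37.8%), and for Eif2ak4 6478 (82.9%). The rank of Eif2ak4 rests on 2 and 2 UMIs in Ery 6, and that of Trib3 on 11 and 13 UMIs in Ery 1.

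**Figure D4:**
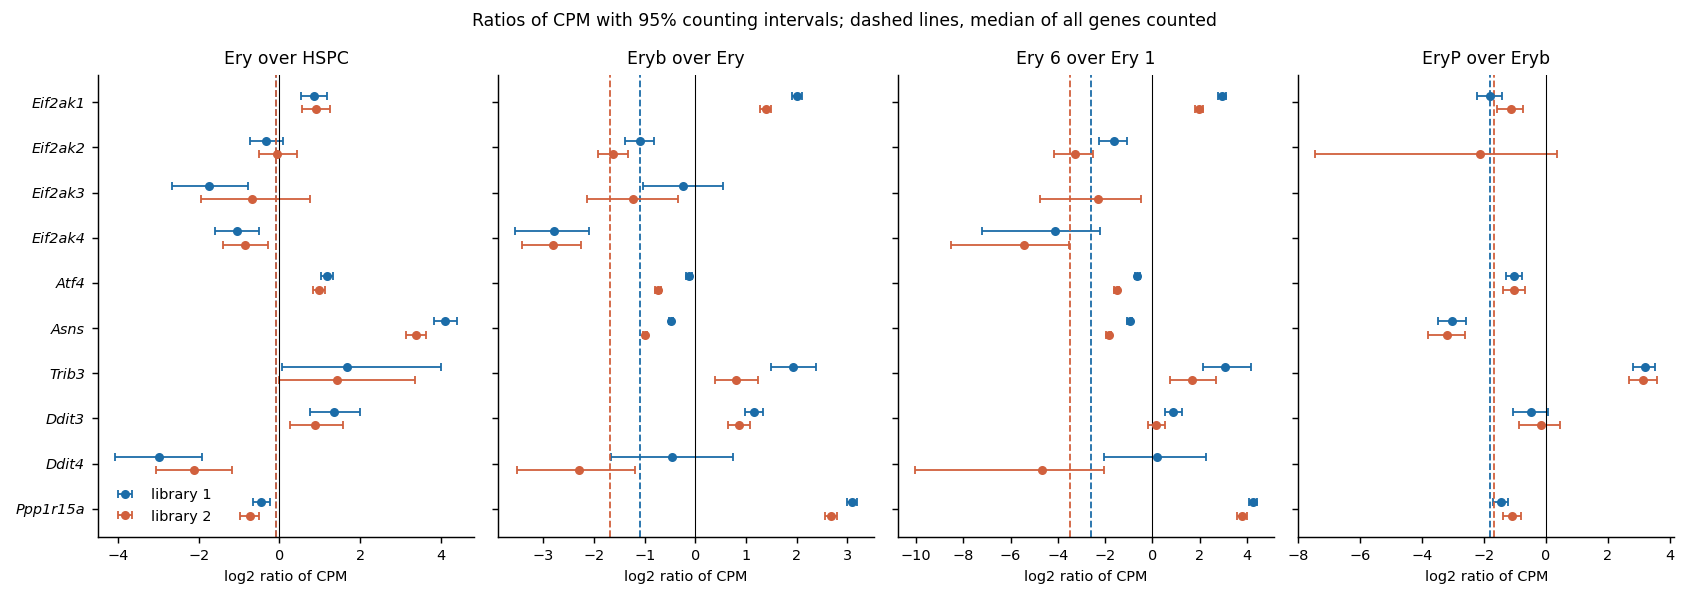
Log2 ratios of CPM (x axes) of the members (y axis) in the 4 contrasts, with 1 point per library, exact 95% counting intervals and a dashed line per library at the median of all counted genes; a member with 0 UMIs in a population has no point for that library. From Ery 1 to Ery 6 Eif2ak1, Trib3 and Ppp1r15a lie above 0 beyond their intervals in both libraries, while the median gene lies at -2.58 and -3.50.

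The remaining genes of the pathway were taken from 5 lists with 70 genes, all of them found. Between Ery and HSPC 12 of 60 counted genes were called higher and 2 lower, beside 6.84% and 15.0% of all genes. The eIF2 and eIF2B subunits, which form the target of the kinases and its exchange factor, had 2 of 8 higher and 0 lower, namely Eif2b3 (3.46 and 3.44) and Eif2b1 (2.20 and 2.20, as CPM ratios). Their median log2 ratio was 0.92, beside -0.08 over all genes. Of 28 counted ATF4 targets 9 were called higher, with Cth of cysteine synthesis (7.33 and 8.86) and the adaptor gene Grb10 (5.93 and 4.67) at the top, and 1 lower, the transcription factor gene Cebpb (0.158 and 0.187). Cth was counted only through Ery, with 81 and 51 UMIs there and 2 and 1 in HSPC. Nupr1 and Sesn2, also called higher, had 6 and 3 and 9 and 8 UMIs in HSPC, so that these calls are uncertain. The median of the targets was 0.76.

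The other lists moved less between Ery and HSPC. Among 9 regulators of the kinases Hsp90aa1, a chaperone, was called higher (2.33 and 2.25) and 0 were called lower. Of 4 phosphatase genes 0 were called, with Ppp1r15b, the constitutive partner of the phosphatase, at 1.92 and 1.81. Of 11 counted chaperones and unfolded protein response genes of the endoplasmic reticulum 1 was called lower, Dnajb9 (0.368 and 0.460).

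Later in the lineage a lower CPM was the usual outcome for these genes, as for all genes. Between Eryb and Ery 35 of 61 counted pathway genes were called lower, beside 53.0% of all genes, and 1 higher, Chac1, a glutathione-degrading ATF4 target (5.41 and 3.55), named after its values were seen. Chac1 was counted only through Eryb, with 62 and 56 UMIs there and 9 and 8 in Ery, so that this call is uncertain. The median log2 ratio of the pathway genes was -1.39 beside -1.38 over all genes. Between Ery 6 and Ery 1 46 of 57 were lower, beside 77.3% of all genes, and 1 was higher, with a median of -3.26 beside -3.06 over all genes.

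By list, all 8 eIF2 and eIF2B subunits had a lower CPM in Ery 6 than in Ery 1, among them Eif2b1 (0.0242 and 0.0198) and Eif2b5 (0.103 and 0.0625). All 9 kinase regulators were lower, with Prkra, an activator of PKR, at 0.0136 and 0.00848 and Hspa8, a chaperone, at 0.0395 and 0.0222. Of 25 counted ATF4 targets 20 were lower and 0 higher, with Aldh18a1 of proline synthesis (0.0223 and 0.0108) and Phgdh of serine synthesis (0.0224 and 0.0127) at the bottom. Of 11 genes of the endoplasmic reticulum 6 were lower, including Creld2 (0.0516 and 0.0234) and Pdia4 (0.0396 and 0.0345). The phosphatase list had 3 lower, Ppp1ca among them (0.124 and 0.0775), and 1 higher, the catalytic subunit gene Ppp1cb (3.98 and 2.16). At 77.3% over all genes, a lower CPM did not set these lists apart.

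Between EryP and Eryb 37 of 59 counted pathway genes were called lower, beside 64.4% of all genes, and 1 higher, the chaperone gene Dnajb9 (2.11 and 3.61). Impact, which inhibits the activation of GCN2, had ratios of 1.98 and 2.35, from only 5 and 3 UMIs in EryP. Eryb held 64 and 47 of its UMIs. Impact was not called, since library 1 missed the threshold, and it is named after its values were seen.

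**Figure D5:**
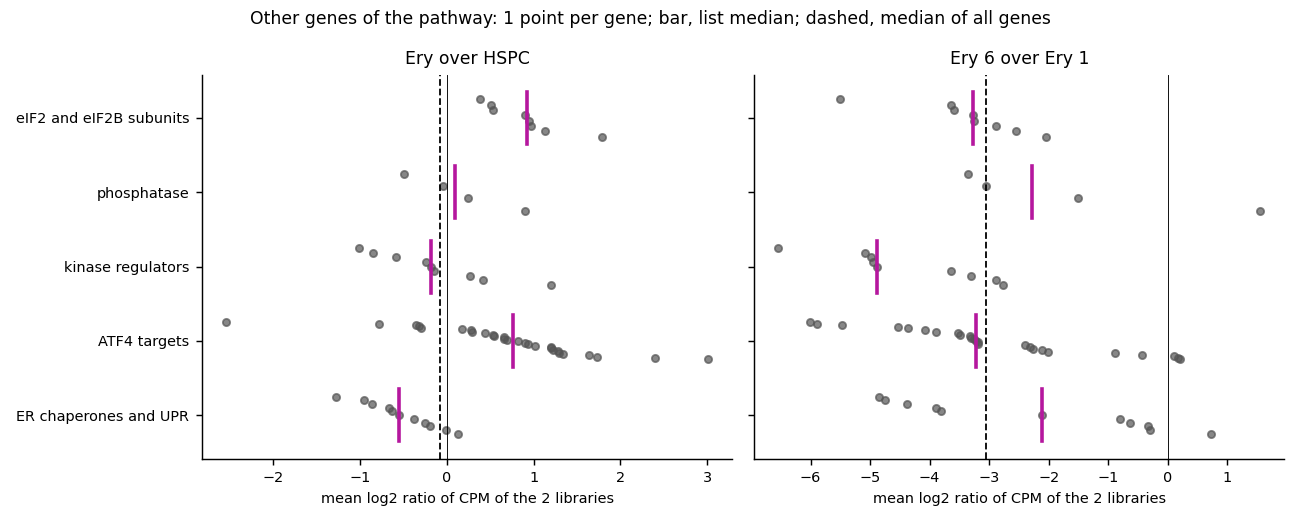
Mean log2 CPM ratio of the libraries (x axes) for each counted pathway gene (1 point) by list (y axis), between Ery and HSPC on the left and between Ery 6 and Ery 1 on the right, with a bar at each list median and a dashed line at the median over all counted genes. ATF4 targets have a median of 0.76 and of -3.21, beside -0.08 and -3.06 over all genes.

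Among the genes whose CPM pattern over the 13 populations was most like that of Eif2ak1 were Apol11b (Pearson r = 0.970), Tfdp2 (0.968), Herc1 (0.962) and Dhrs11 (0.960), of 10277 genes compared. Within single libraries the r of Apol11b was 0.958 and 0.913. Among the members, Eif2ak1 and Ppp1r15a had an r of 0.899, Asns and Atf4 of 0.880, and Eif2ak1 and Eif2ak4 of -0.800. These 13 points share the libraries, and 6 of them are neighbouring erythroid clusters whose depth and globin share change together, so that the correlations are descriptions only.

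Free RNA in the droplets limits what low levels can show. In barcodes with 1 to 50 UMIs, which hold no cell, Eif2ak1 was measured at 102 and 82.1 CPM, Ppp1r15a at 223 and 166, Asns at 289 and 242 and Atf4 at 290 and 191. The level of Eif2ak1 in this free RNA was above that in HSPC and in Ery 1 and below that in Ery 6. If all Hbb-bs, an adult globin, found in HSPC had come from free RNA, that RNA would make up at most 7.59% and 6.63% of their UMIs. It would then carry 29.3% and 22.7% of the Eif2ak1 UMIs of HSPC, and 73.5% and 35.5% of their Asns UMIs. For Hepa the share of Eif2ak1 UMIs so obtained was 47.2% and 53.0%. For Ppp1r15a this share was 61.6% and 54.7% in G, 53.9% and 49.6% in Hepa, and 23.0% and 17.6% in EC. For Ddit3 it was 39.8% and 20.2% in HSPC. The levels of the members outside the erythroid lineage, those of Eif2ak1, Asns and Ppp1r15a among them, are therefore upper values.

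The libraries differed in erythroblasts. Their kept cells also began at different depths, with at least 504 UMIs in library 1 and 4387 in library 2. At the minimum of library 2, 604 of the 1218 Ery 6 cells of library 1 remained, so that paired values compare cells of unlike depth. The CPM of Eif2ak1 in library 1 was 1.62 times (1.56 to 1.69) that in library 2 in Eryb and 1.97 times (1.83 to 2.11) in Ery 6. With globin and mitochondrial UMIs left out of the total, these ratios were 1.05 (1.01 to 1.10) and 1.01 (0.935 to 1.08). In Ery 6 the same ratio went from 2.03 to 1.04 for Ppp1r15a, from 1.97 to 1.01 for Atf4 and from 1.94 to 0.994 for Asns. The libraries thus lay closer together on that total than in CPM.

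Some members overlap other genes, and the sources used here do not say whether reads were counted by strand. Eif2ak1 overlaps Ankrd61 and Aimp2, Ddit3 overlaps Mars, and Ppp1r15a overlaps Tulp2, each on the opposite strand. Reads from such partners cannot be told apart from those of the member if strand was not used, so the levels of these 3 members carry that uncertainty. Eif2ak2 and Eif2ak3 overlap non-coding or unclassified models on the opposite strand (Gm26637 and Gm43292). Ddit3 overlaps a further protein-coding model on the same strand that is also named Ddit3, which could affect counting even where strand was used. The counted genes held no further entry with this symbol.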

How the data were processed

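For 2 droplet libraries the authors deposited raw UMI counts, both unfiltered and restricted to called cells, and a table that assigns each cell to a cluster and a type. Per the labels and methods, Cell Ranger 2.1.1, the mm10 genome and Seurat 3.2.0 were used, although the matrix header of library 1 names version 3.0.0. The chemistry and the counting strand are not given in the sources used here. All 10537 cells of that table were used (51969226 and 62738015 UMIs). Its name HPSC is written HSPC here.

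Counts were summed per population and library. CPM and UMIs per cell carry exact Poisson intervals, shares Clopper-Pearson intervals and ratios exact conditional binomial intervals (95%). These cover counting error only, since 1 liver allows no test. Thinned shares are exact means over all draws of 3600 UMIs. Genes named outside the members are those with the largest mean log2 ratios of each list (2 to 4) and the 5 most alike, of which 1 is not reported here. Calls and intervals were tested on simulated data. Members and lists were chosen with earlier results of these data known. The software was scipy 1.17.1, pandas 2.3.3 and numpy 2.4.6 under Python 3.11.15, with matplotlib 3.10.9 for plots. Ratios over the median gene, library ratios without globin and the depth split of Mk cells were added after the data had been seen.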

Additional observations from a re-analysis of the deposited data

Results flagged for a closer look

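UMIs of Eif2ak1 also lay outside the cells used in the comparisons. In library 2, 3461 barcodes had at least 1000 UMIs but were not called as cells, and these held 6941542 UMIs, of which 492 were from Eif2ak1. Its level there was 70.9 CPM (64.8 to 77.4), beside 82.1 (69.9 to 95.8) in the free RNA of library 2. Library 1 had only 169 such barcodes, with 73 UMIs of Eif2ak1 and 184 CPM (144 to 231), beside 102 (88.2 to 117) in its free RNA. The value was singled out because the comparisons do not use these barcodes, and what they contain was not tested.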

How the results depend on the processing

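No paired analysis was possible because the series has 1 group, and its 2 libraries come from the same liver. As means of the libraries, the level ratios of Eif2ak1 kept their direction under the alternatives run, with changes in size. In library 2 alone, EryP over Eryb without globin and mitochondrial UMIs was 1.03. The log2 ratio of Ery over HSPC was 0.87, and 1.31 per cell and 1.21 with free RNA at 10% subtracted. That of Eryb over Ery was 1.70, and 2.65 without globin and mitochondrial UMIs and 0.27 per cell. That of Ery 6 over Ery 1 was 2.45, and 4.18 and 0.40 in the same order. That of EryP over Eryb was -1.48, and -0.18 without globin and mitochondrial UMIs. On that total the log2 ratio of EryP over Eryb reversed for Atf4 (0.27) and Ppp1r15a (0.015). The mean kinase share of Eif2ak1 was 95.2% in Eryb (94.0% in cells with at least 1000 genes and under 10% mitochondrial UMIs, 95.9% with free RNA subtracted), 67.5% in Ery (64.1% with free RNA subtracted, 68.6% per kb) and 44.0% in HSPC (34.4% with free RNA subtracted). With 1 library left out the Eif2ak1 log2 ratios ranged from 0.845 to 0.895, 1.39 to 2.00, 1.96 to 2.95 and -1.81 to -1.15 in the order of contrasts above. The shares ranged from 95.03% to 95.44% in Eryb, 66.9% to 68.1% in Ery and 42.5% to 45.5% in HSPC. The numbers of genes called moved with the filter, the fold and the total. Between Ery and HSPC 1353 genes were lower, and 2345 with at least 10 UMIs, 2808 with 1 UMI in each population and library, and 2106 at a fold of 1.5, where 1294 rather than 615 were higher. Without globin and mitochondrial UMIs, 1177 genes were higher (432) and 2622 lower (4776) between Eryb and Ery, 1134 were higher (387) between Ery 6 and Ery 1, and 401 were higher (83) and 1408 lower (4687) between EryP and Eryb. For the last contrast 171, 238 and 132 genes were higher with at least 10 UMIs, with 1 UMI each and at a fold of 1.5. Of the members, 5 were higher and 1 lower between Ery and HSPC at a fold of 1.5, and 4 higher and 1 lower between Eryb and Ery without globin and mitochondrial UMIs. Where the total, the number of UMIs required or the fold was changed, the change follows from that construction. Among the values that answer a comparison 70 kept their direction and size and 24 moved, and among the others 248 kept them, 98 moved and 2 reversed. This tally does not hold every ratio of the members, since further ones changed direction with the scale. Without globin and mitochondrial UMIs these included Atf4 and Asns, both between Ery 6 and Ery 1 and between Eryb and Ery. Per cell they included Ddit3 between Eryb and Ery.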
